A study of Mus musculus with 6 samples.

Results

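The CC chemokines Ccl1, Ccl11, Ccl17, Ccl19, Ccl20, Ccl22, Ccl24 and Ccl25, which attract eosinophils, Th2 cells, dendritic cells or naive lymphocytes, were followed in lungs of allergic mice. They were chosen by gene symbol, and each of the 8 had 1 probe among the 17280 on the array. Of these, 6 had a value on at least 4 of 6 arrays and were tested among 11629 probes that stood for 9774 genes. Ccl22 had a value on 3 arrays and Ccl25 on none, so neither was tested.

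Each of the 6 arrays carried, in 1 channel, amplified RNA from lungs of a single C57 mouse that had been sensitized to ovalbumin (OVA) and challenged with it. The other channel carried amplified RNA pooled from lungs of control C57 mice, the same pool on every array. The sources used here do not state how many control mice were pooled or how they were treated, nor the substrain, age, sex, dose and timing of either group. The values are the authors' log ratios, read as log2 ratios and centred on each array, so that 0 means the same signal in the OVA mouse and the pool. The labels do not settle which channel stood on top of the ratio. Titles name the OVA mouse first, yet Retnla and Arg1, known for high expression in allergic lungs, lay on the negative side, so every ratio below keeps its deposited sign without being read as up or down in OVA lungs. The base of the logarithm is not stated either, and a natural logarithm would make every fold larger than printed.

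Chemokines are small secreted proteins that bind to cell surface glycans, form gradients and guide leukocytes that carry the matching receptor. Ccl11 (eotaxin) and Ccl24 (eotaxin-2) act on Ccr3, the main chemokine receptor of eosinophils. Ccl17 and Ccl22 act on Ccr4 and Ccl1 on Ccr8, receptors that are enriched on Th2 cells and regulatory T cells. Ccl20 acts on Ccr6 of immature dendritic cells, B cells and Th17 cells, Ccl19 on Ccr7 of mature dendritic cells and naive T cells, and Ccl25 on Ccr9 of thymocytes and gut-homing T cells. In allergic airways, eotaxins and Ccr4 ligands are known as products of epithelium, fibroblasts, macrophages and dendritic cells exposed to IL-4 or IL-13, which signal through STAT6. Ccl20 is known as an NF-kB target of airway epithelium.

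The mean ratios of all 6 measured chemokines lay on the same side, and the promoters of the 3 that passed the test below are shown. RefSeq windows of GRCm38.p6, from 250 bases before a transcription start to 50 after it, were available for 6 of the 8 genes, in 7 windows. Ccl11 and Ccl24 had no window, so their promoters were not searched. The 250 bases before the start are printed 5′ to 3′ on the strand of the gene. Capitals mark matches on either strand to TTC and GAA with 4 or 3 free bases between them, the spacings of STAT6-type sites, and to GGG and CC with 5 free bases between them, a loose form of an NF-kB-type site. The windows of Ccl20 (chr1:83116516-83116765, plus strand), Ccl17 (chr8:94810203-94810452, plus strand) and Ccl1 (chr11:82179813-82180062, minus strand) read as follows.
Ccl20: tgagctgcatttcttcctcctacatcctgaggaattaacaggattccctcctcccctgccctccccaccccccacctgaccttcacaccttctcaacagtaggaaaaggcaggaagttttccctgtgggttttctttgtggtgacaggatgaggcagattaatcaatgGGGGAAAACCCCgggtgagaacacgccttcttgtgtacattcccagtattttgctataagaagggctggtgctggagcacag
Ccl17: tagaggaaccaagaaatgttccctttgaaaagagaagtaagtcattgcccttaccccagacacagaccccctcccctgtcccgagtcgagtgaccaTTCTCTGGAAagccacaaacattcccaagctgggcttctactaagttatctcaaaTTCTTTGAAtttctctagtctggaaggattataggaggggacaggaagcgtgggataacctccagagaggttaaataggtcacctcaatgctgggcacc
Ccl1: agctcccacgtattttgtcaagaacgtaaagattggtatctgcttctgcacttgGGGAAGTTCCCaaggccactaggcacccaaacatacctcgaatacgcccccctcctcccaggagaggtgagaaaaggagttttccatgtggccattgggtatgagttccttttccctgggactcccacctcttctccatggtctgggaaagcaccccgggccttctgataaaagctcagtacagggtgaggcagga

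In these letters Ccl20 held overlapping matches to the loose NF-kB-type motif between -82 and -71 from the start. One of them, read on the opposite strand, also matched a stricter form, GGG, 2 free bases and TTTCC, which 1.63% of all 32851 windows held. The loose form stood in 50.8% of all windows, and its matches here were in Ccl1 (from -196), Ccl19, Ccl20 and Ccl22. Of the 6 genes with a window, Ccl17 alone held the 4-base spacing, from -154 to -145, and the 3-base spacing, from -99 to -91. These stood in 6.95% and 8.3% of all windows. Both spacings read the same on both strands. TATAAA was also searched and stood in 1 window, of Ccl25, and in 13.6% of all windows. These matches describe sequence and show no binding.

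The mean ratios of all 6 measured chemokines were negative, from -0.97 for Ccl20 to -0.10 for Ccl24, as were those of 50.9% of all tested probes. Of the 6, Ccl20, Ccl1 and Ccl17 differed from the control pool in limma at a Benjamini-Hochberg adjusted p of 0.05, and all 3 lay on the negative side. Over all probes tested, 24.4% passed and 12.3% passed with a negative mean. Without mouse 3, 4 of the 6 passed, all negative, against 26.1% of all probes, or 13.2% with a negative mean. Without mouse 1, 2, 4, 5 or 6 in turn, 1, 0, 0, 2 and 0 of the 6 passed. The shares of all probes in those fits were 20.3%, 11.8%, 11.4%, 17.6% and 14.7%. The median of the members' means was -0.54, against -0.003 over all tested probes. None of the 6 was 2-fold apart from the pool in its mean, which 1.5% of all probes were while passing the test. Unadjusted p-values lay under 0.05 for all 6, as they did for 39.2% of all probes.

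**Figure D1:**
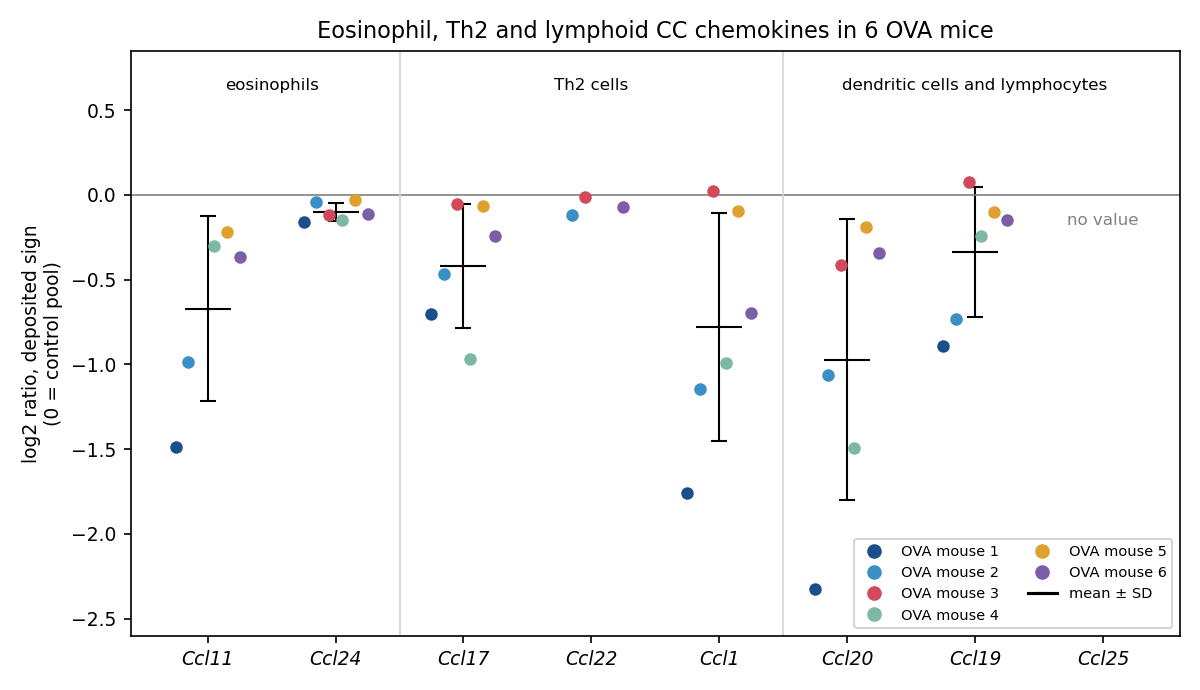
Log2 ratio (deposited sign, 0 is the control pool) of each of the 8 chemokines, with 1 point per OVA mouse and black bars for mean ± SD where at least 4 mice had a value. Mouse 1 lies lowest for Ccl20, Ccl1, Ccl11, Ccl19 and Ccl24 and mouse 4 for Ccl17, and Ccl24 stays within -0.16 and -0.03.

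The array of mouse 3 stood apart from the others: it correlated with them at 0.17 to 0.42 over 8663 probes, against 0.49 to 0.86 among the other 5, and its ratios had the smallest spread, 0.21 against 0.32 to 0.47. Mouse 1 had the widest spread, 0.47. It also had the lowest array weight in limma, 0.56, with mouse 3 next at 0.75. Such weights are lower for arrays whose ratios vary more about the probe means. Averaged over the 5 chemokines with a value in all mice, the ratio was -1.17 in mouse 1, -0.69 in mouse 2, -0.10 in mouse 3, -0.77 in mouse 4, -0.10 in mouse 5 and -0.31 in mouse 6. Mice 1, 2 and 4 were thus low and mice 3 and 5 near 0. The arrays of mice 1, 2 and 4 also resembled each other over all probes (0.82 to 0.86), as did those of mice 5 and 6 (0.85), and the labels give no batch. In sets chosen after seeing these correlations, means ran from -1.63 for Ccl20 to -0.12 for Ccl24 over mice 1, 2 and 4. Over mice 5 and 6 they ran from -0.40 for Ccl1 to -0.07 for Ccl24. All 6 chemokines were negative in each of these mice, so the sign of the means in both sets was fixed beforehand. The part of the arrays in the differences between mice was not tested.

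Of the eotaxins, Ccl11 had ratios of -1.49, -0.98, -0.30, -0.22 and -0.37 in mice 1, 2, 4, 5 and 6 and no value in mouse 3. All 5 values were negative, with mice 1 and 2 well below the other 3. Its mean of -0.67 ± 0.55 (SD, n = 5) was 1.59-fold from the pool, and it did not pass (limma, adjusted p = 0.0516). The 95% interval of the mean ran from -1.14 to -0.20, so a difference of up to 2.21-fold was within it. Ccl11 passed without mouse 3 (limma, adjusted p = 0.0455), although its own values are the same in that fit.

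Ccl24, the second eotaxin, had ratios of -0.16, -0.04, -0.12, -0.15, -0.03 and -0.11 in mice 1 to 6. Every mouse was slightly negative and no mouse stood out. Its mean of -0.10 ± 0.05 (SD, n = 6) was 1.07-fold from the pool and did not pass (limma, adjusted p = 0.0749), with a 95% interval from -0.19 to -0.02. Without mouse 3 its mean was the same to that precision (-0.10, limma, adjusted p = 0.135). Spots that repeat 1 sequence on an array, 10 sequences in all, varied with a median SD between 0.0812 and 0.226. The ratios of Ccl24 in single mice all lay below the upper end of that range in size. That range is for single spots, while the mean of Ccl24 over 6 mice had a standard error of 0.036 (limma). The SD of Ccl24 between mice was at percentile 6.35 of all tested probes, against 97 for that of Ccl11.

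Ccr3, the receptor of both eotaxins, had a value in 3 mice, -0.14 in mouse 2, -0.05 in mouse 5 and -0.03 in mouse 6, and was not tested. Of 12 eosinophil markers, 10 were on the array and 5 were measured, of which 3 passed, all negative, with means between -1.91 and 0.01. These were the cytokine receptor subunit Csf2rb2 at -0.89, the ribonuclease Rnase2a at -1.91 and the lipoxygenase Alox15 at -0.59. The granule protein gene Prg2 was at -0.06 and Siglecf at 0.01, and neither passed. Epx had no value, Prg3 had 2 and Il5ra had 1. A ratio gives no level, so whether these markers were expressed was not measured, and in whole lung a different number of cells of a type and a different amount of RNA per cell cannot be told apart.

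Among ligands of Th2 cells, Ccl17, also called TARC, had ratios of -0.70, -0.47, -0.06, -0.97, -0.07 and -0.24 in mice 1 to 6. All 6 were negative, mouse 4 the most, while mice 3 and 5 were close to 0. The mean of -0.42 ± 0.37 (SD, n = 6) was 1.34-fold from the pool and passed narrowly (limma, adjusted p = 0.0494), with a 95% interval from -0.71 to -0.12. Without mouse 3 the mean was -0.49 (limma, adjusted p = 0.0348). In an exact sign-flip permutation test over mice its p was 0.0312, the smallest that 6 mice allow. The call was lost without centring (limma, adjusted p = 0.0506), and without mouse 1, 2, 4, 5 or 6 in turn (adjusted p = 0.107, 0.122, 0.103, 0.0521 and 0.0836).

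The probe of Ccl17 lies 18 numbers from that of Ccl8, a monocyte chemokine at -2.28. Mean ratios of probes 18 numbers apart correlated at 0.10 across 8947 pairs, and those 6 and 24 apart at 0.13 and 0.11, while the other distances up to 30 gave -0.02 to 0.05. Whether the neighbour contributed to the ratio of Ccl17 was not tested. Ccl22, made by dendritic cells and macrophages and the neighbour of Ccl17 on chromosome 8 with Cx3cl1 between them, had ratios of -0.12 in mouse 2, -0.01 in mouse 3 and -0.07 in mouse 6. In the same mice Ccl17 was at -0.47, -0.06 and -0.24, so Ccl22 was the closer to 0 in each of the 3. Ccr4, their receptor, was at 0.10, 0.02, 0.01, -0.05 and 0.04 in mice 1, 2, 4, 5 and 6, with values on both sides of 0 and a mean of 0.02 (limma, adjusted p = 0.726).

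Ccl1, made by activated T cells and mast cells, had ratios of -1.76, -1.15, 0.02, -0.99, -0.10 and -0.69 in mice 1 to 6. Mouse 3 lay just above 0, mouse 5 just below it, and the other 4 mice were clearly negative. Its mean of -0.78 ± 0.67 (SD, n = 6) was 1.71-fold from the pool and passed (limma, adjusted p = 0.0442), with a 95% interval from -1.31 to -0.25. Without mouse 3 the mean was -0.94 and still passed (limma, adjusted p = 0.0221). The call was lost without mouse 1, 2, 4 or 6 in turn (limma, adjusted p = 0.0699, 0.124, 0.117 and 0.0934), and the exact sign-flip permutation test gave p = 0.0625.

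Next to Ccl1, 1 number away, is the probe of Ccl3, a macrophage chemokine at -2.04. Mean ratios of probes 1 number apart correlated at 0.05 across 8755 pairs, and the part of Ccl3 in the ratio of Ccl1 was not tested. Ccr8, the receptor of Ccl1, was at -0.14, -0.08, -0.07, 0.12, 0.05 and 0.02 in mice 1 to 6, and did not pass (limma, adjusted p = 0.813). Of 16 markers of Th2 and other T cells, 13 were on the array and 11 were measured, with a median of 0: 2 passed with negative and 2 with positive means. They were the regulatory T cell factor Foxp3 at -0.32, the inhibitory receptor Ctla4 at -0.71, the Th2 factor Gata3 at 0.51 and the receptor chain Cd247 at 0.43. The chains of the T cell receptor complex Cd3e at -0.16 and Cd3d at 0.00 did not pass.

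Ccl20, the ligand of Ccr6, had the lowest mean of the 6 measured chemokines and ratios of -2.33, -1.06, -0.41, -1.50, -0.19 and -0.34 in mice 1 to 6. All 6 were negative, with mice 1, 2 and 4 well below mice 3, 5 and 6. Its mean of -0.97 ± 0.83 (SD, n = 6) was 1.96-fold from the pool and passed (limma, adjusted p = 0.0424), with a 95% interval from -1.62 to -0.32. The exact sign-flip permutation test gave p = 0.0312. The call held without mouse 3 (mean -1.08, 2.12-fold, limma, adjusted p = 0.0427) and was lost without mouse 2, 4 or 6 in turn (adjusted p = 0.109, 0.119 and 0.0604). Muc4, a membrane mucin of the airway whose probe is 1 number away, was at -1.01. Ccr6 had no value in any mouse.

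For Ccl19, made by stromal and dendritic cells of lymphoid tissue, ratios were -0.89, -0.73, 0.08, -0.24, -0.10 and -0.15 in mice 1 to 6. Mice 1 and 2 were low, mouse 3 was slightly positive and the other 3 lay between -0.24 and -0.10. The mean of -0.34 ± 0.38 (SD, n = 6) was 1.26-fold from the pool and did not pass (limma, adjusted p = 0.0997), with a 95% interval from -0.65 to -0.03. Without mouse 3 it was -0.42 (limma, adjusted p = 0.0566). The mouse genome holds pseudogenes of Ccl19 (Ccl19-ps1, Ccl19-ps2 and Ccl19-ps3 on chromosome 4), and whether the probe tells them apart is not given in the sources used here. Ccr7, the receptor of Ccl19, had no value in any mouse.

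Ccr9, the receptor of Ccl25, was at -0.48, -0.14, -0.42, -0.33, -0.17 and -0.30 in mice 1 to 6. It was negative in all 6 mice, mouse 3 included, and its mean of -0.31 ± 0.14 (SD, n = 6) passed (limma, adjusted p = 0.0101). Of 11 markers of thymus and small intestine, where Ccl25 is chiefly made, 9 were on the array and 4 were measured, with a median of 0.07. The thymic epithelial factor Foxn1 passed at -0.20, while Cd8b1 at 0.14 and Vil1 at 0.06 did not.

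**Figure D2:**
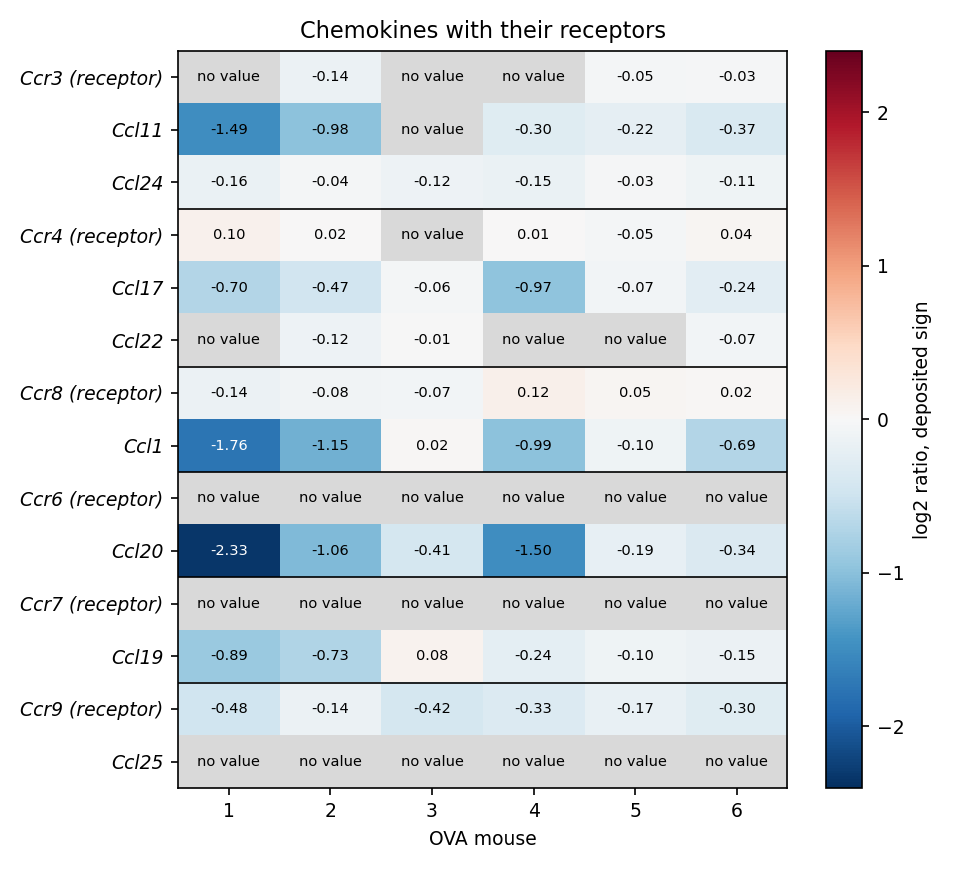
Log2 ratio (deposited sign, colour and printed value) of the 8 chemokines and their 6 receptors in OVA mice 1 to 6, with each receptor above its ligands and missing values in grey. Ccr4 and Ccr8 lie between -0.14 and 0.12 while Ccl17 and Ccl1 reach -0.97 and -1.76, and Ccr6, Ccr7 and Ccl25 have no value.

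Ordered by mean ratio, the chemokines ran Ccl20, Ccl1, Ccl11, Ccl17, Ccl19 and Ccl24. Each mean difference between neighbours in that order was smaller than its SD over mice, and whether the means differ was not tested. Ccl20 minus Ccl1 averaged -0.19 ± 0.37 (SD, n = 6) and Ccl1 minus Ccl11 averaged -0.27 ± 0.29 (n = 5). Ccl11 minus Ccl17 averaged -0.18 ± 0.55 (n = 5), Ccl17 minus Ccl19 averaged -0.08 ± 0.35 (n = 6) and Ccl19 minus Ccl24 averaged -0.24 ± 0.38 (n = 6). Of the 6, 4 were negative in every mouse with a value (Ccl11, Ccl17, Ccl20 and Ccl24), as were 14.5% of all tested probes.

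Among other CC chemokines, which mostly attract monocytes and macrophages, 9 of 12 listed were on the array and 7 were measured, with a median of -0.998. In this list 4 passed, all negative: Ccl9 at -2.38, Ccl8 at -2.28, Ccl3 at -2.04 and Ccl6 at -0.99. All 4 lay further from 0 than any of the 6 chemokines described here, though Ccl6 only slightly further than Ccl20 at -0.97. Ccl12 at -0.998 and Ccl4 at -0.17 did not pass. Ccl5, which attracts T cells and eosinophils, did not pass and had the single positive mean in the family, 0.27. Its ratios were -0.62, -0.03, 0.55, 0.68, 0.43 and 0.58 in mice 1 to 6, with mouse 1 lowest and 4 mice above 0. Ccl7 had values in 2 mice and Ccl2 in none, and no test was made between these genes and the chosen ones. Ccl11 and Ccl1 lie on chromosome 11 in 1 row with Ccl2, Ccl7, Ccl12 and Ccl8, and the 4 measured genes of that row all had negative means, Ccl11 at -0.67, Ccl12 at -0.998, Ccl8 at -2.28 and Ccl1 at -0.78.

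**Figure D3:**
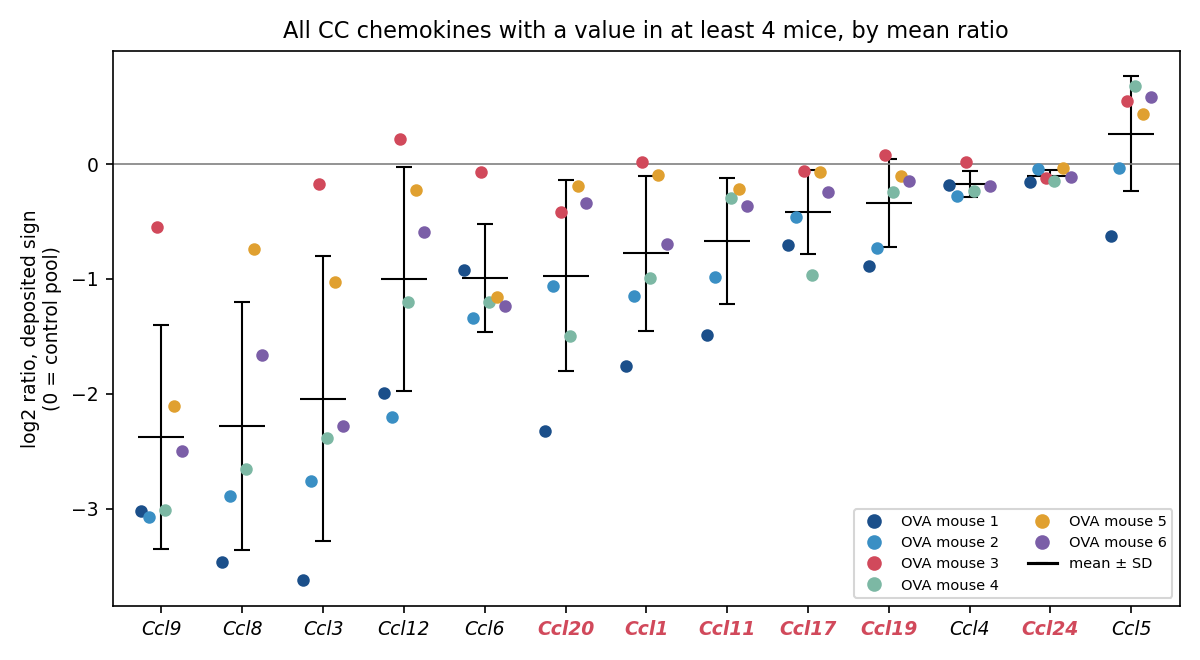
Log2 ratio (deposited sign) of the 13 CC chemokines with a value in at least 4 OVA mice, ordered by mean, with 1 point per mouse, mean ± SD in black and the 6 described chemokines in red letters. Mouse 3 is the highest point for Ccl9, Ccl3, Ccl12, Ccl6, Ccl1, Ccl17, Ccl19 and Ccl4, and Ccl5 alone has a positive mean.

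The 13 points of the family in the plot of all probes show how the chosen chemokines sit beside the whole array. In the size of its mean ratio, Ccl20 was at percentile 98.3 of all tested probes, Ccl1 at 97.2, Ccl11 at 96.1, Ccl17 at 89.4, Ccl19 at 85.1 and Ccl24 at 47.3. The median SD between mice was 0.47 over the 6 and 0.14 over all tested probes. Ccl24, with an SD of 0.05, lay below that of all probes and the other 5 above it.

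**Figure D4:**
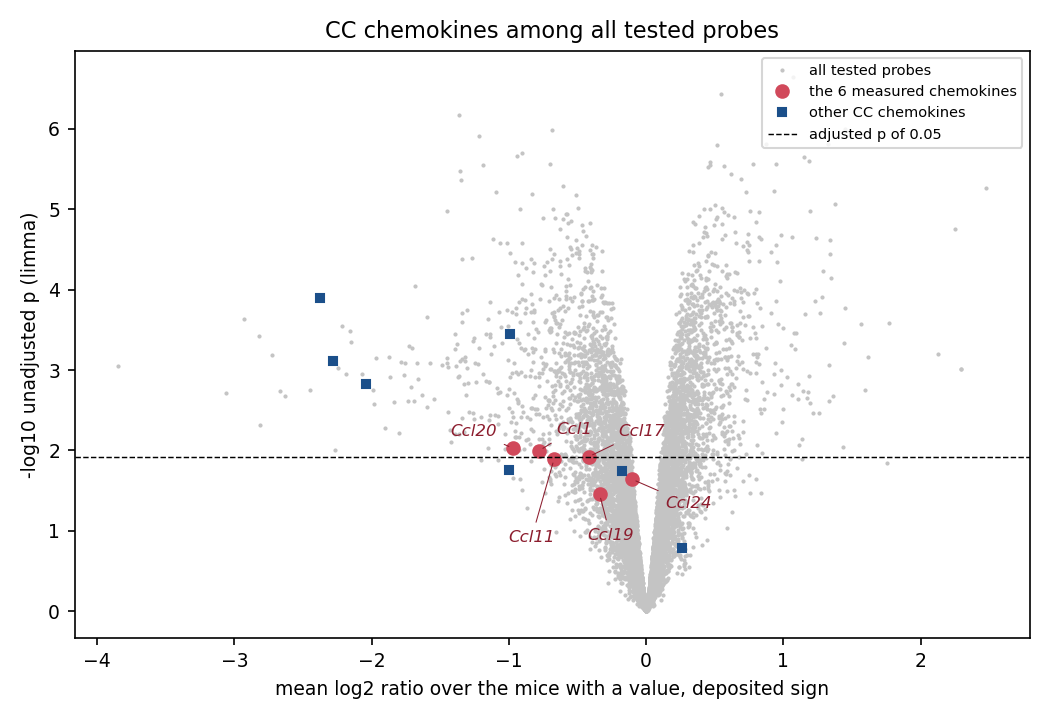
Mean log2 ratio (deposited sign) against -log10 of the unadjusted limma p for 11629 tested probes (grey), with the 6 measured chemokines as red circles, 7 other CC chemokines as blue squares and a dashed line at an adjusted p of 0.05. Ccl20, Ccl1 and Ccl17 lie on or just above the line, and Ccl11, Ccl24 and Ccl19 below it.

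Of 15 receptors for CC chemokines, 14 were on the array and 9 were measured, with a median of 0.02. Beside Ccr9, only Ccr1 passed in this list, at -0.69 (limma, adjusted p = 0.0152), a receptor of monocytes and neutrophils for Ccl3 and Ccl9. The scavenging receptors Ackr2, which clears inflammatory CC chemokines, and Ackr4, which clears Ccl19 and Ccl25, were at 0.06 and 0.05 and did not pass.

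In the list of IL-4, IL-13 and STAT6 signalling, 11 of 19 genes were measured, with a median of -0.18, and 2 passed on each side. The epithelial cytokine Tslp at 0.46 and Gata3 were positive, while Socs1, an inhibitor of cytokine signalling, at -1.24 and the alarmin Il33 at -0.61 were negative. Il4 at -0.36, Il13 at -0.18, Il5 at -0.21 and Stat6 at -0.08 did not pass. In the list of NF-kB and lymphotoxin genes 7 of 16 were measured, with a median of -0.16, and 2 passed, both negative: Tnf at -1.19 and the inhibitor Nfkbie at -0.40. The NF-kB subunit Rela was at 0.16 and did not pass.

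Cells that make or follow these chemokines were represented by 3 further lists. Of 16 dendritic cell markers 10 were measured, with a median of -0.20, and 5 passed, all negative: Cd40 at -0.51, the lectin Clec10a at -0.71, the actin bundler Fscn1 at -0.18, Batf3 at -0.25 and Cd83 at -0.22. The other 5 did not pass: Itgax at -0.39, Flt3 at -0.06, Itgae at -0.05, Zbtb46 at 0.05 and Cd207 at 0.09. Of 14 markers of B cells and lymphoid tissue 8 were measured, all with negative means and a median of -0.31. In this list 2 passed, the stromal glycoprotein Pdpn at -0.38 and Cxcl13, the chemokine of B cell follicles, at -0.57, while the B cell factor Pax5 at -0.21 did not. Of 12 markers of alternatively activated macrophages 8 were measured, with a median of -0.28, and 4 passed, all negative: Retnla at -2.81, Arg1 at -2.26, Clec10a and the transglutaminase Tgm2 at -0.32. The other 4 did not pass: Mrc1 at -0.23, Msr1 at -0.23, Il10 at -0.05 and Cd163 at 0.20. The median of this list was -0.70, -0.42, 0.12, -0.51, -0.19 and -0.34 in mice 1 to 6, with mice 1, 2 and 4 lowest and mouse 3 highest.

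Tissue markers were compared as well. Of 12 lung markers 9 were measured, with a median of 0.19, and 4 passed: the club cell protein Scgb1a1 at 1.38 and the surfactant protein Sftpc at 0.60 on the positive side, Sftpa1 at -0.61 and Sftpd at -0.23 on the negative side. Of 13 heart and fat markers 9 were measured and all 9 passed on the positive side, from 0.64 to 2.30, among them the natriuretic peptide Nppb at 1.45, Cidea at 2.25 and Ucp1, the uncoupling protein of brown fat, at 1.32. Their median was 2.49, 1.78, 0.42, 1.43, 0.83 and 1.59 in mice 1 to 6, so it was highest in mouse 1 and lowest in mouse 3. The part of these tissues in the chemokine ratios was not tested.

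For each chemokine that passed, the 3 probes with the most similar pattern over the 6 mice were sought among 1404 probes with a named gene, 6 values and an SD of at least 0.3. Nearest to Ccl20 were Klf16, Mirt1 and Cd74, the invariant chain of class II molecules, with Pearson r of 0.995, 0.993 and 0.992. Pearson r leaves out the level, and the means of these probes were 0.04, -0.01 and -0.50, against -0.97 for Ccl20. Nearest to Ccl1 were 5730416F02Rik, the integrin Itgax (CD11c) and Gps2, with r of 0.999, 0.993 and 0.992. Nearest to Ccl17 were Bmper, Fxyd4 and Noxo1, with r of 0.978, 0.974 and 0.958. These values rest on 6 arrays that share 1 pool and differ in spread, and were the highest of many, so they describe likeness alone.

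The 3 calls depended on which mice entered the fit, as the plot of adjusted p without each mouse shows. The number of the 6 chemokines that passed was 1 without mouse 1, 0 without mouse 2, 4 without mouse 3, 0 without mouse 4, 2 without mouse 5 and 0 without mouse 6 (limma). Every mean stayed negative in all of these fits, but all 6 chemokines were already negative in each mouse other than mouse 3. At an unadjusted p of 0.05, 5 of the 6 passed without mouse 2, 4 without mouse 4 and 6 without mouse 6, against 31.7%, 32.5% and 34% of all probes in the same fits. Of all probes, 20.3% passed the adjusted threshold without mouse 1, 11.8% without mouse 2, 26.1% without mouse 3, 11.4% without mouse 4, 17.6% without mouse 5 and 14.7% without mouse 6. The pool is 1 control sample, so differences among control mice do not enter the test. The number of arrays limits the precision, and no dye swap is known.

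**Figure D5:**
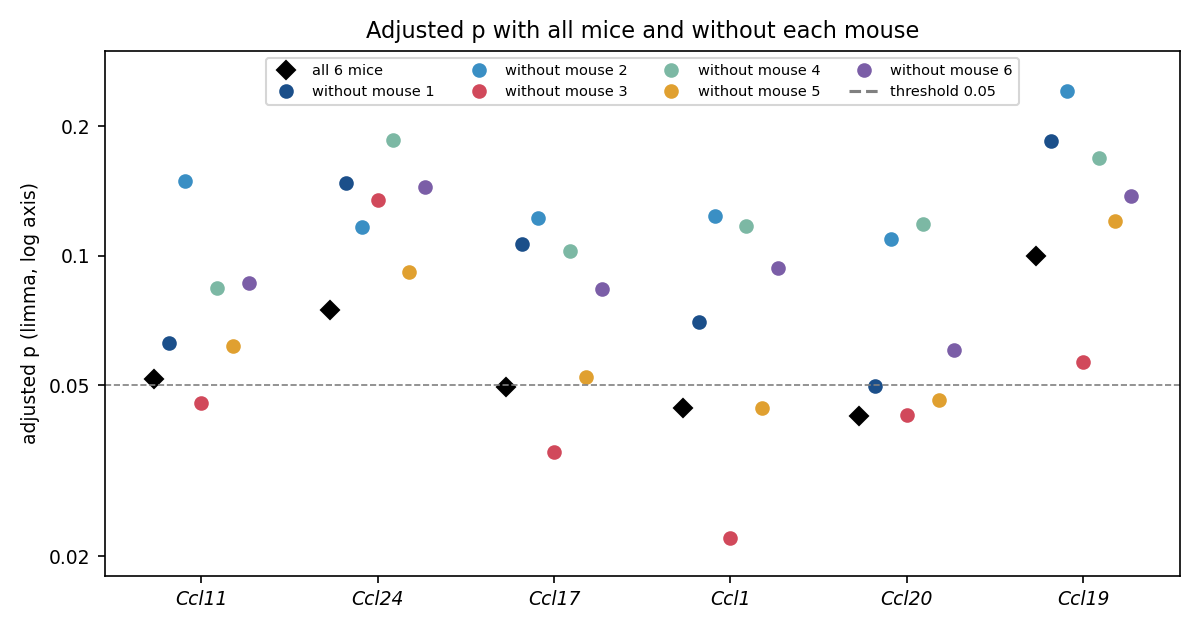
Adjusted p (limma, log axis) of the 6 measured chemokines with all 6 OVA mice (black diamonds) and without each mouse (coloured circles), with the threshold of 0.05 dashed. Ccl20 stays at or under the line in 3 of the 6 fits without a mouse, Ccl1 in 2, Ccl17 and Ccl11 in 1 and Ccl19 and Ccl24 in none.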

How the data were processed

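Lung RNA of 6 OVA mice was set against 1 pool of control lung RNA on two-colour arrays. The authors deposited 1 log ratio per spot, read here as log2. The sources used here give no scanner, background correction, normalization, dye or direction. Symbols came from the platform annotation of 17280 probes (14722 with 1 symbol, 2557 without, 1 with several). For 14445 of the probes with 1 symbol, the gene was found among RefSeq genes of GRCm38.p6 and its symbol there was used.

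After 170 repeat rows and 4 plant rows were set aside, each array was centred on its median over 8663 probes with 6 values. Probes with at least 4 values were tested against 0 (limma 3.58.1 under R 4.3.3, eBayes, two-sided, Benjamini-Hochberg over 11629 probes). The fit was also run on simulated ratios with independent noise on each array. The arrays here share a pool and resemble each other, so that run gives no error rate for them.

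The members and lists were chosen with earlier results of these data known. Named genes were the members, their receptors, the CC chemokines and receptors that passed, the 3 nearest patterns and up to 3 genes of each other list by adjusted p. Ccl2, Ccl4, Ccl5, Ccl7, Ccl12, Ackr2, Ackr4, Il4, Il5, Il13, Il33, Stat6, Epx, Prg2, Prg3, Siglecf, Il5ra, Cd247, Cd3d, Cd3e, Batf3, Cd83, Arg1, Sftpd and Muc4 lie outside that rule and were added after their values were seen. So were Flt3, Itgae, Zbtb46, Cd207, Cd163, Mrc1, Il10 and Msr1. Alternatives covered centring, scaling, filters, weights, variances, thresholds, neighbouring probes and leaving out each mouse. Figures used matplotlib 3.10.9 in Python 3.11.15.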

Additional observations from a re-analysis of the deposited data

Results flagged for a closer look

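Of 22 CC chemokines and receptors checked for a mouse far from the others, 1 had such a mouse, and chance gives about 1 in 20 groups. Ccl6, a monocyte chemokine, was at -0.073 in mouse 3, while the other 5 mice lay between -1.34 and -0.922. None of the 6 measured eosinophil, Th2 and lymphoid chemokines had such a mouse.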

How the results depend on the processing

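No mean of the 6 chemokines changed sign under any alternative run. Many of these runs changed only the threshold, the variances or the probes tested, which leaves the means as they were and cannot change a sign. Ccl17 missed the threshold without centring (mean -0.42, limma, adjusted p = 0.0506), with arrays scaled to 1 spread (-0.39, 0.0531), with quantile normalization (-0.39, 0.0535), with probes on at least 3 arrays (-0.42, 0.0516) and with robust eBayes (-0.42, 0.0516). Ccl11 passed with scaled arrays (-0.58, 0.0313), quantile normalization (-0.57, 0.0313), at least 5 arrays (-0.67, 0.0491) and array weights (-0.57, 0.0446). With unmoderated variances Ccl20 (-0.97, adjusted p = 0.114), Ccl1 (-0.78, 0.116) and Ccl17 (-0.42, 0.12) missed it and Ccl24 (-0.10, 0.0493) passed. Ccl20, Ccl1 and Ccl17 also missed an adjusted p of 0.01 and the 2-fold floor, with the same means. In the exact sign-flip permutation test Ccl1 (-0.78, p = 0.0625) missed 0.05 and Ccl24 (-0.10, p = 0.0312) did not. The cause was not tested.

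The number of the 6 that passed was 1 with unmoderated variances, 0 at 0.01 and 0 with the 2-fold floor. Of all 11629 probes, 1444, 746 and 174 passed. Other CC chemokines numbered 2 with unmoderated variances and 2 at 0.01, and receptors 1, 0 and 0. Without each mouse in turn, means ran from -1.13 to -0.70 for Ccl20, -0.94 to -0.58 for Ccl1, -0.78 to -0.47 for Ccl11, -0.49 to -0.31 for Ccl17, -0.42 to -0.23 for Ccl19 and -0.12 to -0.09 for Ccl24. Between 0 and 4 of the 6, 1 and 2 receptors, 3 and 6 other CC chemokines and 1325 and 3036 probes passed. Leaving out probes 6, 18 or 24 numbers from a stronger probe removes Ccl17, and 2 of the others passed, as did 2695 of all remaining probes. Leaving out those 1 number from one, added after seeing the data, removes Ccl1, and 2 of the others passed, as did 2794 of all remaining probes. Requiring all 6 arrays removes Ccl11.

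Background correction and a filter on dim probes were not run, since intensities were not analysed here. No paired analysis was possible because all arrays belong to 1 group set against 1 pool.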
